A study of Mus musculus with 8 samples.

Results

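The activin and follistatin axis was followed in putative muscle stem cells of the mouse through every probe set that names 1 of 10 genes and no other gene. A probe set is a group of short oligonucleotides on an array that reads 1 transcript region. It was represented by 9 of the 10 genes, of 18193 genes named on the arrays, and by 19 of 45037 probe sets. These genes were the activin subunits Inhba and Inhbb, the follistatin and follistatin-like genes Fst, Fstl3 and Fstl1, and the receptors Acvr2a, Acvr2b, Acvr1b and Acvr1. Mstn, which encodes myostatin, had no probe set under this rule, so its signal was not analysed here. The axis is thus described without the ligand that gives it its name.

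The 4 cultures were primary cells of mouse hind limb muscles, grown in F10 Ham medium with serum. Preplating, used for the 2 PP6 cultures (replicates 2 and 3), separates cells by how quickly they attach to a dish. The 2 MACS cultures, also replicates 2 and 3, were sorted with magnetic beads for cells with Sca1, a surface protein of many muscle-resident progenitors, and without CD45, the common leukocyte antigen. No strain, age, sex, genotype or passage is given in the labels, all groups share the same tissue and medium, and muscle cells are named as the contaminating type in both. A purity estimate was given for MACS only, and RNA was taken from 6500000 and 6700000 PP6 cells and from 1980000 and 2040000 MACS cells. RNA concentration was 35 and 15 ng/ul in PP6, against 55 and 65 ng/ul in MACS, and its part in the values was not tested. Nothing states that the cultures came from separate animals, so p-values measure the spread between these cultures. Each culture was read on an MOE430A and an MOE430B array as MAS5 signal, the manufacturer's brightness summary for a probe set, and signals are given here as log2.

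Activins are dimers of the inhibin beta subunits and, like myostatin, belong to the TGF-beta superfamily. They bind a type II receptor, which then activates a type I receptor that phosphorylates SMAD2 and SMAD3. Follistatin and the related protein encoded by Fstl3 bind activin and myostatin outside the cell and keep them from their receptors. In skeletal muscle myostatin and activin A limit fibre growth, and follistatin counters them.

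The defining markers set the cultures in context before the axis is described. Genes of differentiated muscle summed to 31689 and 84823 signal units in the PP6 cultures, against 7155 and 7979 in the MACS cultures, with a positive difference in 12 of 12 tested genes. Leukocyte genes summed to 107595 and 359615 in PP6, against 10312 and 11423 in MACS, and were positive in 12 of 12. Fibroblast and mesenchymal progenitor genes summed to 88017 and 100444 in PP6, against 38188 and 72299 in MACS, satellite cell and myoblast genes to 27769 and 19008 in PP6, against 20794 and 37871 in MACS, and endothelial genes to 20552 and 22855 in PP6, against 38733 and 30771 in MACS. The filter on dim signals lets a gene that is dim in MACS through by its PP6 signal alone, so the counts of positive differences support nothing. No array listed a marker at 0, and Ly6a, the gene of Sca1, was not analysed here. Ptprc, which encodes CD45, stood at 10.57 ± 1.22 in PP6 and 8.46 ± 0.29 in MACS (log2 signal, SD, n = 2 each), while a dim probe set of the gene gave a difference of -1.08. Myog, a factor of myoblast differentiation, stood at 12.98 ± 0.90 in PP6 and 10.72 ± 0.31 in MACS, and Des, the muscle intermediate filament gene, at 11.54 ± 0.16 in PP6 and 10.27 ± 0.23 in MACS, a difference of 1.27, while its other tested probe set gave -0.28. Myod1, a myoblast determination factor, stood at 12.63 ± 0.42 in PP6 and 12.82 ± 0.14 in MACS, a difference of -0.19 with 0.37 from its other probe set, and Pax7, the satellite cell factor, at 10.18 ± 0.56 in PP6 and 11.74 ± 0.50 in MACS. In these bulk cultures fewer cells of a type and less RNA per cell cannot be told apart, and the part of cell makeup in the values below was not tested.

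Setting PP6 against MACS asks whether the axis differs between preplated cells and cells sorted for Sca1. No member passed the test. Of the 19 probe sets, 12 were above the median signal of their array in at least 2 of the 4 cultures and were tested, and 0 of these passed an adjusted p of 0.05 in limma. The background is the same, since 0 of all 23963 tested probe sets (0%) passed in either direction. The smallest adjusted p was 0.37 among the members and 0.255 among all probe sets. At an unadjusted p under 0.05, 1 member was higher in PP6, where 5.69% of all tested probe sets were, and 1 was lower, where 5.83% were. The median difference of the 12 tested members was 0.04 log2 units, 6 of them positive and 6 negative, beside 0.01 for all tested probe sets. With arrays centred on their medians it was -0.08, beside -0.11 for all tested probe sets. Without MACS replicate 3 that median was 0.34, and without MACS replicate 2 it was -0.22. Both PP6 cultures lay above both MACS cultures in 5 of the 19 probe sets, where 23% of all 45037 did, and below them in 1 of 19, where 17.6% of all did. Among tested probe sets these counts were 3 of 12, where 22.5% of all did, and 1 of 12, where 21.7% did. With 2 cultures a side, an exact permutation test over cultures cannot give a two-sided p below 33.3%.

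**Figure D1:**
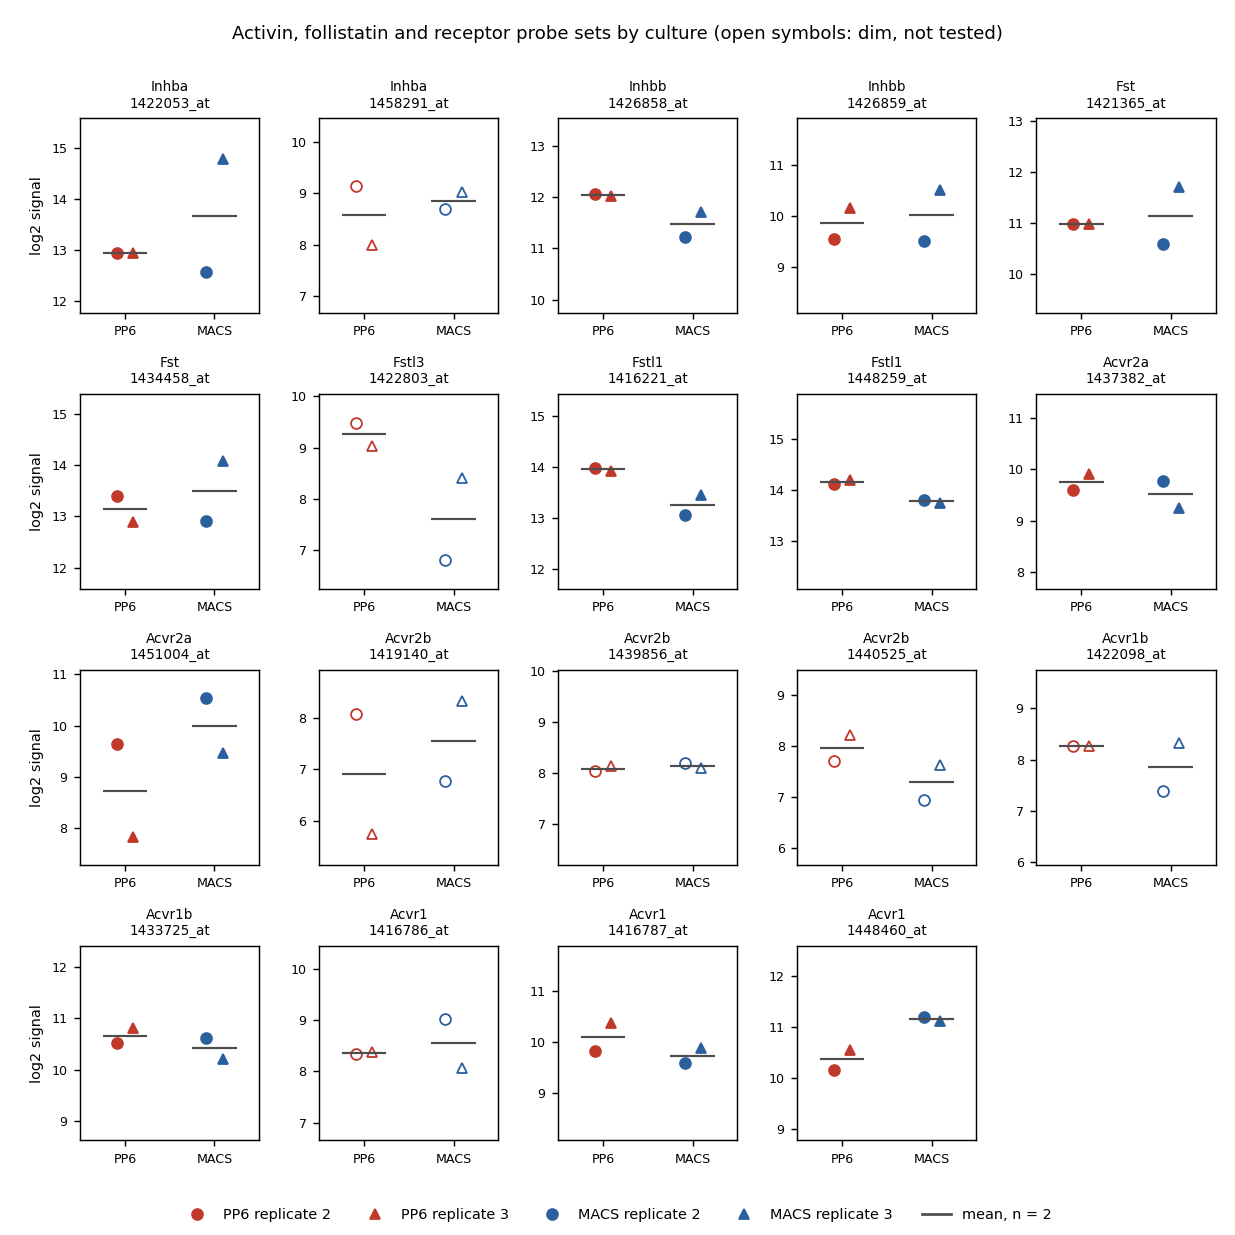
Log2 signal (vertical axis) of each of the 19 probe sets in the 2 PP6 cultures (red) and the 2 MACS cultures (blue), with circles for replicate 2, triangles for replicate 3 and a line at the mean. Every panel spans the same number of log2 units. Open symbols mark the 7 dim probe sets that were not tested. The MACS cultures are far apart for Inhba 1422053_at, at 12.57 and 14.78, while the PP6 cultures both stand at 12.94.

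Among the ligand genes, Inhba was uneven within MACS and Inhbb gave a different answer from each of its probe sets. Inhba encodes the beta A subunit, which forms activin A. Its probe set 1422053_at had a log2 signal of 12.94 in both PP6 cultures, against 12.57 and 14.78 in MACS replicates 2 and 3. The PP6 cultures lay between the MACS cultures, so the groups overlapped. The difference was -0.73 ± 0.68 log2 units (SE), with a 95% interval of -2.42 to 0.96 and an adjusted p of 0.72. It was 0.37 without MACS replicate 3 and -1.83 without MACS replicate 2, so its sign rested on 1 culture. The MACS cultures differed 4.6-fold for this probe set, and 2.83% of all tested probe sets had a MACS gap as large. A second Inhba probe set, 1458291_at, was below the array median in all 4 cultures, at 9.15 and 7.99 in PP6 and at 8.70 and 9.02 in MACS, and was not tested.

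Inhbb encodes the beta B subunit of activin B. Its probe set 1426858_at stood at 12.07 and 12.02 in PP6, against 11.22 and 11.71 in MACS. Both PP6 cultures were above both MACS cultures, by 0.58 ± 0.26 log2 units or 1.49-fold, with an interval of -0.07 to 1.23 and an adjusted p of 0.476. Without MACS replicate 2 the difference was 0.33. The other Inhbb probe set, 1426859_at, stood at 9.54 and 10.16 in PP6 and at 9.51 and 10.50 in MACS. Here the groups overlapped, with a difference of -0.16 ± 0.49 that turned to 0.34 without MACS replicate 3 and 0.15 without PP6 replicate 2. The interval of that probe set, -1.37 to 1.05, holds the difference seen with the other one.

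Among the follistatin and follistatin-like genes, Fst encodes follistatin, which holds activin in an almost irreversible complex. Its probe set 1434458_at stood at 13.39 and 12.90 in PP6, against 12.91 and 14.08 in MACS, and 1421365_at stood at 10.98 in both PP6 cultures, against 10.58 and 11.71 in MACS. In both probe sets MACS replicate 3 was the highest culture, by 2.25-fold and 2.18-fold over MACS replicate 2, and the groups overlapped. The differences were -0.35 ± 0.42 (adjusted p = 0.789) and -0.16 ± 0.41 (adjusted p = 0.907), and without MACS replicate 3 they were 0.24 and 0.40. The intervals were -1.39 to 0.70 and -1.19 to 0.86.

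Inhba and Fst thus had their highest value in the same culture, MACS replicate 3. A gap between the MACS cultures at least as large as that of Fst was found in 10.3% of tested probe sets for 1434458_at and in 10.9% for 1421365_at. Over all 19 probe sets of the axis, MACS replicate 3 was the higher MACS culture in 12 and the lower in 7. The 19 include dim probe sets and several of the same gene. The share over all probe sets was not computed, so the count cannot be judged. With 4 cultures no correlation across samples was computed. The summed satellite cell and myoblast markers, 20794 in MACS replicate 2 and 37871 in MACS replicate 3, and the fibroblast markers, 38188 and 72299, were also higher in MACS replicate 3, and their part in the gap was not tested.

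**Figure D2:**
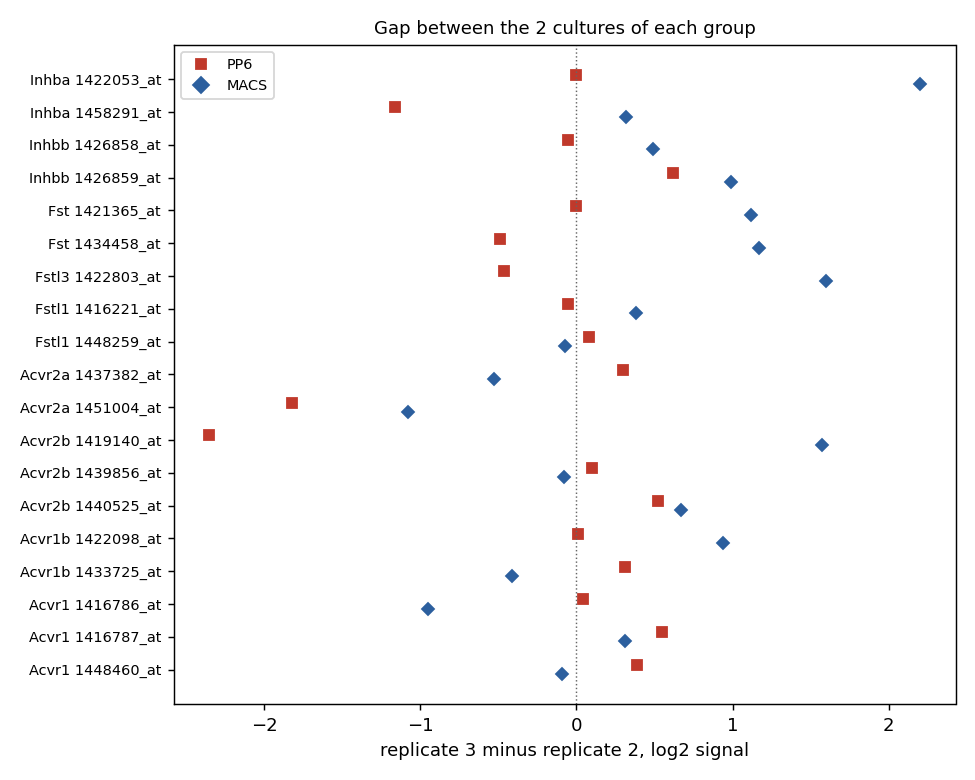
Gap between the cultures of each group, as log2 signal of replicate 3 minus replicate 2 (horizontal axis), for PP6 (red squares) and MACS (blue diamonds) in each of the 19 probe sets. The MACS gaps of Inhba 1422053_at, at 2.20, and of the Fst probe sets, at 1.12 and 1.17, stand to the right of 0, while the PP6 gaps of the same probe sets are 0.00, 0.00 and -0.49.

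Fstl1 encodes a secreted glycoprotein with a follistatin domain that is made by mesenchymal cells. It was the only member with every probe set tested and every PP6 culture above every MACS culture. Probe set 1416221_at stood at 13.98 and 13.93 in PP6, against 13.07 and 13.45 in MACS. The difference of 0.70 ± 0.22 log2 units, or 1.62-fold, had an interval of 0.15 to 1.24, an unadjusted limma p of 0.0203 and an adjusted p of 0.37. This was the member with an unadjusted p under 0.05 among those higher in PP6. Probe set 1448259_at stood at 14.12 and 14.20 in PP6, against 13.81 and 13.74 in MACS, a difference of 0.38 ± 0.19 or 1.31-fold with an adjusted p of 0.512. Leaving out each culture in turn moved the differences between 0.51 and 0.88 and between 0.34 and 0.42. The fibroblast markers had a median difference of 0.78 over 9 tested genes, 7 positive and 2 negative. Leaving out MACS replicate 2 gave a median of 0.23, leaving out MACS replicate 3 gave 1.23 and leaving out PP6 replicate 3 gave 0.49, and their part in the Fstl1 values was not tested.

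Fstl3, whose product binds activin and myostatin as follistatin does, had 1 probe set, 1422803_at. It stood at 9.49 and 9.03 in PP6, against 6.80 and 8.40 in MACS. Both PP6 cultures were above both MACS cultures by 1.66 log2 units on average, and the MACS cultures differed 3.02-fold from each other. Only PP6 replicate 2 was above its array median, so the gene was not tested. In a fit with no filter the interval was -0.21 to 3.53 and the adjusted p 0.594. The tables hold no detection calls, so no bound can be put on a fold against so dim a signal.

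The promoters of Fstl1 and Fstl3 are shown because these were the follistatin and follistatin-like genes with both PP6 cultures above both MACS cultures. That of Inhba is shown because Inhba had the widest gap between cultures of a group among tested members. The sequences are the 250 bases before the RefSeq start on GRCm38.p6, 5′ to 3′, on the plus strand: Fstl1 at chr16:37776805-37777054, Fstl3 at chr10:79777024-79777273 and Inhba at chr13:16011601-16011850. Capitals mark CAGAC, the core letters of the SMAD binding element, or its reverse complement GTCTG.
Fstl1: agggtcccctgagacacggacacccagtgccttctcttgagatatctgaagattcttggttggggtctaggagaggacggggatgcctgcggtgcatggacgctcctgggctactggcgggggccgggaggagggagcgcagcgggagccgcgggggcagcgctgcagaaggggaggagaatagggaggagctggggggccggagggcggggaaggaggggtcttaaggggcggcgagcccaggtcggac
Fstl3: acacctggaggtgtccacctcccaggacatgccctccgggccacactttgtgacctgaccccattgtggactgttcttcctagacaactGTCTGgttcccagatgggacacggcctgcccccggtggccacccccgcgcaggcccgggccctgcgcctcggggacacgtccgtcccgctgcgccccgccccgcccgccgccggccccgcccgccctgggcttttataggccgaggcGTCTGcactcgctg
Inhba: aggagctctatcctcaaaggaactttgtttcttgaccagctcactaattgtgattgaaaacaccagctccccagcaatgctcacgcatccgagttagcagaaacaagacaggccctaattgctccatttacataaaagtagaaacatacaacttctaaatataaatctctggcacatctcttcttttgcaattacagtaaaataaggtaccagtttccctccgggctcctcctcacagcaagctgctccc
Fstl3 held 2 matches on the reverse strand, which begin 161 and 14 bases before the start, and Fstl1 and Inhba held none. RefSeq promoters were at hand for 9 axis genes, which include Mstn, a gene without signal here, and lack Fst. On either strand 4 of them held the motif, namely Acvr2a, Acvr2b, Fstl3 and Mstn, and 42.2% of all 32851 promoters of this length did. A match is a run of letters in this window and was not tested as a binding site.

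The type II receptor genes, whose products bind activin and myostatin first, gave no difference beyond the spread. Acvr2a probe set 1437382_at stood at 9.60 and 9.90 in PP6, against 9.77 and 9.24 in MACS, a difference of 0.25 ± 0.44 (adjusted p = 0.862) that was -0.02 without MACS replicate 3. Probe set 1451004_at stood at 9.64 and 7.83 in PP6, against 10.54 and 9.46 in MACS, a difference of -1.27 ± 0.78 with an interval of -3.20 to 0.66 and an adjusted p of 0.588. In that probe set replicate 2 was the higher culture of both groups, by 3.52-fold in PP6 and 2.11-fold in MACS, and PP6 replicate 3 was below its array median. Leaving out PP6 replicate 3 gave -0.36, and leaving out PP6 replicate 2 gave -2.18. Acvr2b, the other type II receptor gene, was below the array median in all 4 cultures with all 3 of its probe sets and was not tested. Its steadiest probe set, 1439856_at, stood at 8.04 and 8.14 in PP6 and at 8.19 and 8.11 in MACS. The other Acvr2b probe sets, 1440525_at and 1419140_at, differed by 0.67 and -0.64 on dim signal, and for 1419140_at the PP6 cultures were 5.08-fold apart.

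The type I receptor gene Acvr1b, whose product is the main activin partner for SMAD2 and SMAD3, had no difference past the test. Its probe set 1433725_at stood at 10.51 and 10.82 in PP6, against 10.62 and 10.21 in MACS, a difference of 0.25 ± 0.32 with an interval of -0.54 to 1.03 and an adjusted p of 0.801. The dim probe set 1422098_at stood at 8.26 and 8.27 in PP6 and at 7.38 and 8.32 in MACS and was not tested.

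Acvr1 encodes a type I receptor that serves mainly BMP ligands and can also be bound by activin. Its 3 probe sets did not give 1 direction. Probe set 1448460_at stood at 10.17 and 10.56 in PP6, against 11.20 and 11.12 in MACS. Both PP6 cultures were below both MACS cultures, and the difference of -0.79 ± 0.29 log2 units had an interval of -1.50 to -0.08, an unadjusted limma p of 0.0347 and an adjusted p of 0.411. This was the member with an unadjusted p under 0.05 among those lower in PP6, and leaving out each culture in turn gave -0.99 to -0.60. Probe set 1416787_at stood at 9.82 and 10.37 in PP6, against 9.58 and 9.89 in MACS, a difference of 0.36 ± 0.39 with an adjusted p of 0.762 and overlapping groups. Probe set 1416786_at was dim, at 8.34 and 8.38 in PP6 and at 9.03 and 8.07 in MACS, and was not tested. The gene as a whole therefore has no settled direction.

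**Figure D3:**
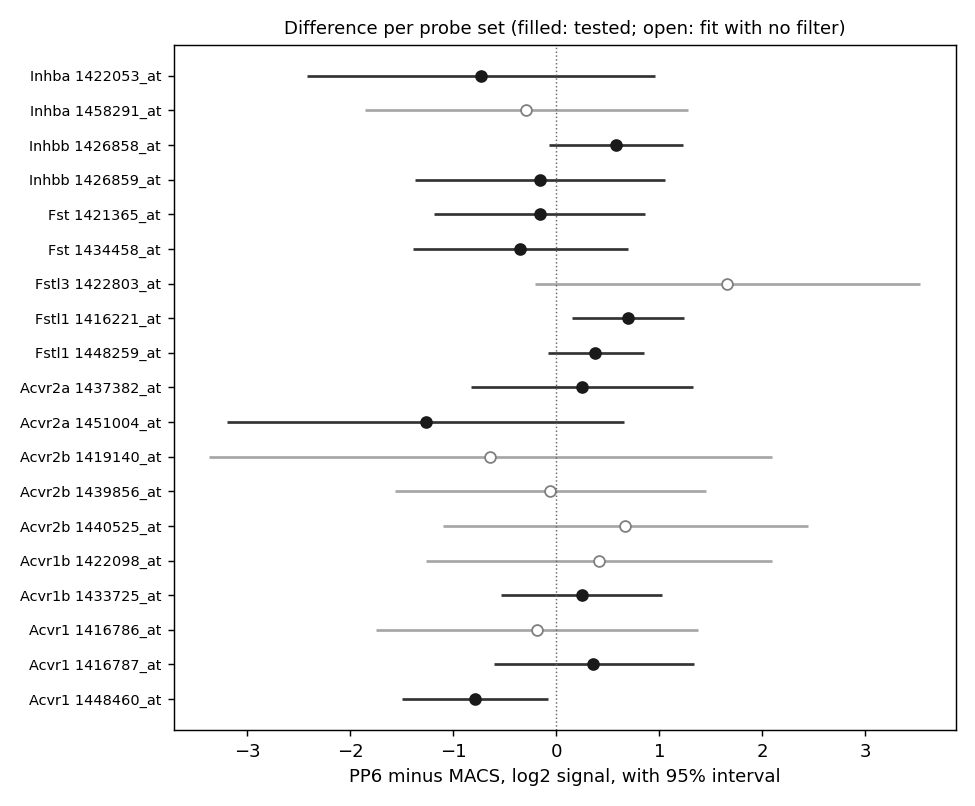
Difference of PP6 minus MACS in log2 signal (horizontal axis) for each of the 19 probe sets, with its 95% interval. Filled points are the 12 tested probe sets, and open points are dim probe sets with the interval of a fit with no filter. The intervals of Fstl1 1416221_at, 0.15 to 1.24, and Acvr1 1448460_at, -1.50 to -0.08, leave out 0 before adjustment over all probe sets.

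Beyond the 10 axis genes, 55 other genes that process, bind, receive, transmit or respond to these ligands were listed, 52 had a probe set and 38 were tested, each through 1 probe set. None of the 38 passed an adjusted p of 0.05 in limma, and none of all 12278 tested genes did (0%). At an unadjusted p under 0.05, 7 were higher and 7 lower, where 5.81% and 5.44% of all tested genes were. Their median difference was -0.09 log2 units, beside 0.02 for all tested genes.

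Other ligand genes and genes that process or hold the latent ligand were higher in PP6 in 4 of 5 tested cases, with a median difference of 0.76 and 3 at an unadjusted p under 0.05, or 0 without PP6 replicate 3. Of all tested genes 5.81% were higher at an unadjusted p under 0.05, and 6315 of 12278 had a positive difference. With no filter 8 of 10 genes of this list were higher, with a median of 0.78. Pcsk5 encodes a proprotein convertase that cuts precursors of this superfamily. It stood at 10.16 and 11.04 in PP6, against 8.03 and 8.38 in MACS, a difference of 2.39 ± 0.53 with an adjusted p of 0.314. It was above the array median in PP6 only, so it entered the test through the group where it is high. Its place among the 4 higher genes and the 3 at an unadjusted p under 0.05 therefore supports nothing. Another tested Pcsk5 probe set gave a difference of 2.26, while dim ones gave 0.4, 0.51 and 0.28. Bmp1 encodes a tolloid protease that cuts the myostatin propeptide. It stood at 12.25 and 12.53 in PP6, against 11.44 and 11.72 in MACS, a difference of 0.81 ± 0.24 with an adjusted p of 0.357. Ltbp3, a latent TGF-beta binding protein gene, differed by 0.76 ± 0.19, while its other tested probe sets gave -0.09 and -0.37.

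Matrix proteins that can bind TGF-beta superfamily ligands led the list of other antagonists. Of 6 tested genes 5 were higher in PP6, with a median of 1.12. At an unadjusted p under 0.05, 3 were higher, where 5.81% of all tested genes were. Fmod and Fstl5 are among the 5 and passed the filter through PP6 alone, and Fmod is also 1 of the 3. These counts and the median thus rest partly on the filter. With no filter 7 of 10 genes were higher with a median of 0.90. Dcn encodes decorin, a small proteoglycan that binds myostatin. It stood at 16.76 and 16.53 in PP6, against 15.14 and 15.68 in MACS, a difference of 1.23 ± 0.27 with an adjusted p of 0.314, and a second tested probe set gave 0.06. Bgn, the gene of the related proteoglycan biglycan, differed by 1.00 ± 0.22 with its tested probe sets between 0.95 and 1.42. Fmod, the fibromodulin gene, differed by 3.37 ± 0.46 with an adjusted p of 0.255 and lay under the median of the array in each MACS culture. With MOE430A fitted alone its adjusted p was 0.02, but a gene let into the test by the group where it is high had to differ, so this supports nothing. The summed fibroblast markers given above were also higher in PP6, and their part in these values was not tested.

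Genes of the SMAD step lay on the other side. Of 13 tested genes 12 were lower in PP6 (11 with quantile normalization, 13 with arrays centred on their medians). Their median difference was -0.50, or -0.44 with quantile normalization and -0.38 over 14 genes with no filter. With arrays centred on their medians it was -0.63, where the median of all tested probe sets also moved, from 0.01 to -0.11. Of all 12278 tested genes 5963 had a negative difference. At an unadjusted p under 0.05, 6 of the 13 were lower, where 5.44% of all tested genes were. The 6 became 5 of 14 with no filter, 4 without the variance trend and 3 with the replicate block. That count was 2 without MACS replicate 2, 3 without MACS replicate 3, 1 without PP6 replicate 2 and 2 without PP6 replicate 3. Smurf2 encodes a ubiquitin ligase that removes SMADs and receptors. It stood at 13.72 and 13.36 in PP6, against 15.56 and 14.89 in MACS, a difference of -1.68 ± 0.29 with an adjusted p of 0.285, and its other probe sets gave -1.65 and -0.63. Smad7, an inhibitory SMAD gene, stood at 10.32 and 10.68 in PP6, against 11.17 and 11.67 in MACS, a difference of -0.92 ± 0.31, but its second probe set gave 0.60. Skil encodes the SMAD corepressor SnoN and differed by -0.85 ± 0.25, with -0.08 from its second probe set. The signal transducers Smad2 and Smad3 and the inhibitor Smad6 complete the 6 and were named after their values were seen. They stood at 0.57, 0.676 and 0.636 times the MACS level. A second tested Smad2 probe set gave a log2 difference of 0.03, and dim Smad3 probe sets gave 0.41 and 0.22. With the tested probe sets of a gene averaged, the pathway genes lower at that p numbered 5 in place of 7. Smurf1, also named after its values were seen, gave -0.08 with the probe set that stood for it and -3.12 with another.

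Receptor genes outside the axis had a median difference of -0.35 over 6 tested genes, -0.07 over 9 with no filter and -0.11 with the filter at the 75th percentile, with 1 lower at an unadjusted p under 0.05, or 0 without MACS replicate 2, without PP6 replicate 2 and without PP6 replicate 3. That gene was Eng, the endothelial coreceptor endoglin, at 12.10 and 11.93 in PP6, against 12.70 and 12.52 in MACS, a difference of -0.59 ± 0.21 with an adjusted p of 0.412. Acvrl1, an endothelial type I receptor gene, differed by -0.67 ± 0.31 and by -0.13 in its other tested probe set, and Tgfbr2, the type II receptor gene of TGF-beta, by 0.49 ± 0.29. The endothelial markers were lower in PP6 in 8 of 8 tested genes, 3 of them at an unadjusted p under 0.05. Of all tested genes 5.44% were lower at that p, and 5963 of 12278 had a negative difference. The filter can let a gene dim in PP6 through by its MACS signal, so the marker count supports nothing. The part of the endothelial markers in Eng and Acvrl1 was not tested. Target and atrophy genes had a median of 0.05 over 8 tested genes, -0.08 with arrays centred on their medians, -0.18 when MACS replicate 2 was left out and -0.22 when PP6 replicate 2 was. Leaving out replicate 3 of a group instead gave 0.23 for MACS and 0.32 for PP6. Col1a1, a collagen gene, differed by 2.17 ± 0.35 with an adjusted p of 0.264, and a dim probe set of the gene gave 1.17. With MOE430A fitted alone its adjusted limma p was 0.0374. With each array type fitted alone 55 probe sets passed as higher, against 0 in the main fit. Ccn2, the matricellular gene once called CTGF, differed by -0.66 ± 0.33 and Tgfb1i1 by 0.55 ± 0.34.

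**Figure D4:**
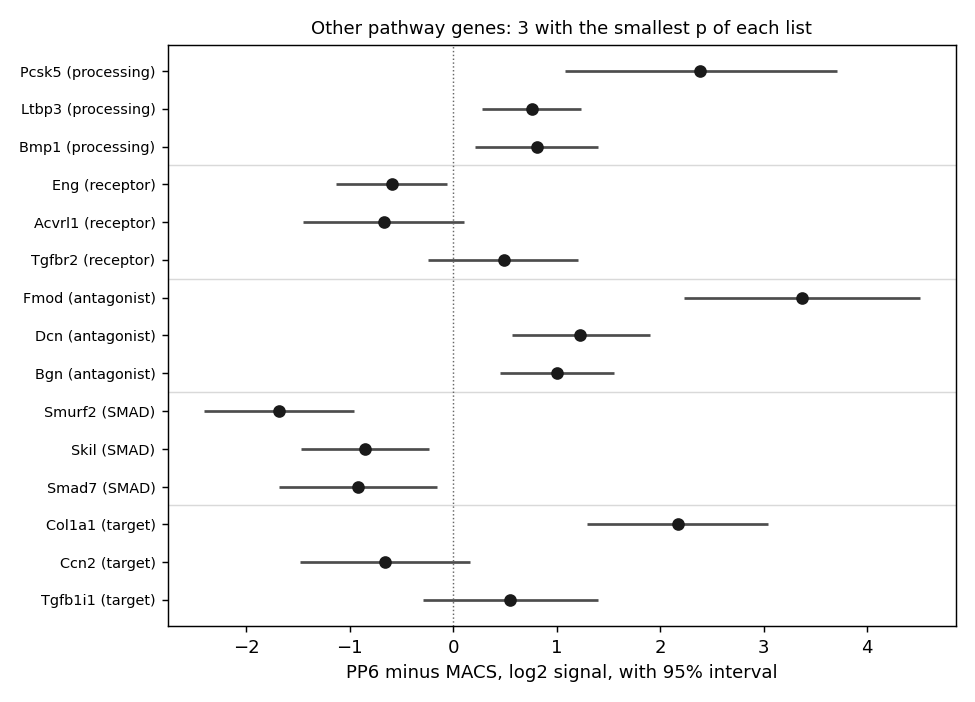
Difference of PP6 minus MACS in log2 signal (horizontal axis) with its 95% interval for 15 other pathway genes, 3 from each of 5 lists, taken by smallest p. The antagonist and processing genes stand to the right of 0, led by Fmod at 3.37, and the SMAD genes to the left, led by Smurf2 at -1.68.

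The genes whose signal over the 4 cultures ran closest to a member were ranked by the root mean square difference of centred log2 signal among the 12278 tested genes. For Fstl1, through probe set 1448259_at, these were 4930556L07Rik, Spsb3 and Slc38a9, within 0.01 log2 units. For Inhbb, through 1426858_at, they were Cpa3, Elk4 and 8430429K09Rik, within 0.013, and for Acvr1, through 1448460_at, Rpa2, Brcc3 and Lbr, within 0.045. With 4 cultures and so many genes, near matches are a description of these arrays.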

How the data were processed

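Each deposited value is the linear signal intensity of a probe set on 1 array, made by the authors with MAS5 per the submitters' processing notes (version not given in the sources used here). Its trimmed mean (2% off each end) was 1500.6 on every MOE430A array and 1500.2 to 1500.3 on the MOE430B arrays. No detection calls or probe-level signals were used here, so background correction could not be varied. Probe sets were named through the platform annotation, with symbols updated by Entrez identifier. On MOE430A 20393 had 1 symbol, 691 several and 1606 none, and on MOE430B 14674, 245 and 7656. A probe set with several symbols was not used. Signals were scaled to a common trimmed mean per array type, log2-transformed without pseudocount and stacked. For 100 probe sets found on both types the MOE430A value was used, and 128 control probe sets were dropped.

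The test of PP6 against MACS used limma 3.58.1 (R 4.3.3; lmFit, eBayes with intensity trend, two-sided, Benjamini-Hochberg over 23963 probe sets, 2 residual degrees of freedom and 5.67 after moderation). A probe set was tested when above the median of its array in at least 2 of 4 cultures. A gene was represented by its tested probe set, MOE430A first, then the brightest. The number of arrays limits the precision. For simulated data, noise was drawn from the moderated variances of the 23963 probe sets, which are more alike than their raw variances. There, 3 of 50 changes of 1 log2 unit, 25 of 50 of 2, 28 of 50 of 3 and 39 of 50 of 4 were recovered. In the real data 0 of 23963 probe sets passed, so these shares need not hold for the real arrays. Within a type, chip lot, station and the days of hybridisation and scanning were the same for all arrays, and 4 fluidics modules served the 4 cultures, so module and culture cannot be told apart. Named genes were all members, the 3 tested genes with the smallest p of each other pathway list, Pax7, Myod1, Myog, Des and Ptprc, and the 3 genes closest in pattern to each of 3 members. Members and lists were chosen with earlier results of these data known. Alternatives changed the scaling, pseudocount, filter, variance trend, array types, replicate block and cultures.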

Additional observations from a re-analysis of the deposited data

How the results depend on the processing

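No setting put a member past an adjusted p of 0.05, and the tested members kept their signs in all settings that kept all 4 cultures. Leaving out each culture in turn moved Inhba 1422053_at between -1.83 and 0.37 log2 units, Inhbb 1426859_at between -0.65 and 0.34, Fst 1421365_at between -0.73 and 0.40, Fst 1434458_at between -0.93 and 0.24, Acvr2a 1437382_at between -0.02 and 0.51 and Myod1 between -0.48 and 0.11. In the same fits the median of the tested members ran from -0.22 to 0.34. Members at an unadjusted p under 0.05 numbered 0 to 2 higher and 0 to 2 lower, pathway genes 4 to 9 higher and 1 to 4 lower, and all probe sets 648 to 1789 higher and 918 to 1347 lower. Past the adjusted threshold all probe sets gave 0 to 1 higher and 0 lower. The higher member (Fstl1) was lost without the variance trend, where the count was 0. The lower member (Acvr1) was lost at the 75th percentile filter and with the replicate block, with a count of 0 in each. When each array type was fitted alone, 55 of the 23963 probe sets passed as higher and 16 as lower. Among those higher were 2 of the 38 tested pathway genes, Fmod and Col1a1, and the share over all genes was not computed. Fmod entered the test through PP6 alone, so its pass supports nothing. The 75th percentile filter gave 5 probe sets higher past the threshold and 739 higher at an unadjusted p under 0.05, and no filter gave 2216. Pathway genes lower at that p numbered 4 without the trend. Median centring moved the median of all probe sets from 0.01 to -0.11 and the split at that p from 1364 higher and 1396 lower to 945 and 1982.

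No pairing of the cultures by replicate number was seen in the signals. Deviations of same-numbered cultures from their group means correlated at -0.0335 over the tested probe sets. Such a correlation cannot tell whether same-numbered cultures shared an animal or a preparation. With the replicate block 2 probe sets passed as higher, and 3 pathway genes were lower at an unadjusted p under 0.05.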
